A study of Mus musculus with 20 samples.

Results

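Some subunits of the respiratory chain come in alternative forms, or isoforms, encoded by separate genes, and 5 such pairs were examined in hearts of control and iron-deficient mice. The 10 genes, chosen by name as 5 isoform pairs, are Cox4i1 and Cox4i2, Cox6a1 and Cox6a2, Cox7a1 and Cox7a2, Cox8a and Cox8b, and Ndufa4 and Ndufa4l2. They are 10 of the 23420 genes in the count table, and all 10 passed the filter on low counts, as did 13590 genes in all. RNA sequencing was done on pulverized heart tissue of 20 male wild type C57BL/6 mice (C57BL/6J in the study's methods) aged 9 weeks. Of these, 10 mice had been fed a control diet and 10 an iron-deficient diet for 6 weeks from the age of 3 weeks. The second group carries iron-deficiency anemia (IDA), and the labels give the iron in its diet as <2 ppm in one field and as >2 ppm in another. The comparison asks whether the diet changed the level of each isoform gene, and whether it changed the balance of the isoforms within a pair. In whole-heart RNA, fewer cells of a type and less RNA per cell cannot be told apart.

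Cytochrome c oxidase, complex IV, is the last enzyme of the respiratory chain and passes electrons from cytochrome c to oxygen. Its catalytic core is encoded in mitochondrial DNA and carries heme and copper, and nuclear genes encode the small subunits around the core. Several of these subunits exist as a form found in most tissues and a form restricted to heart and skeletal muscle, and the isoforms differ in how they tune the enzyme. Cox6a2, Cox7a1 and Cox8b are the heart and muscle forms, and Cox6a1, Cox7a2 and Cox8a the forms of most tissues. Cox4i1 is the general form of the largest nuclear-encoded subunit, and Cox4i2 is a form known from lung and from cells under low oxygen. Ndufa4 was first assigned to complex I and is now placed in complex IV, and its relative Ndufa4l2 is a known target of hypoxia-inducible factor (HIF), the transcription factor that responds to low oxygen.

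The 10 genes lie on 8 chromosomes in the mm10 build and are short, with 363 exonic bases in Cox8b to 964 in Ndufa4l2 and with 2 to 5 exons. Cox4i1 is on chromosome 8 (120668290 to 120674209, plus strand) and Cox4i2 on chromosome 2 (152754173 to 152765037, plus strand). Ndufa4 is on chromosome 6 (11900373 to 11907446, minus strand) and Ndufa4l2 on chromosome 10 (127514939 to 127517156, plus strand). Cox6a1 is on chromosome 5 (115345654 to 115348955, minus strand) and Cox8a on chromosome 19 (7215158 to 7217616, minus strand). Cox6a2 (128205435 to 128206366, minus strand), Cox7a1 (30184171 to 30186030, plus strand) and Cox8b (140898942 to 140900446, minus strand) share chromosome 7, and Cox7a2 is on chromosome 9 (79755241 to 79759853, minus strand). The exons of Cox6a2 overlap those of Itgad by 69 bases on the opposite strand, and the exons of Ndufa4l2 overlap those of Shmt2 by 34 bases, also on the opposite strand. Per the file header the counting ignored strand, so read pairs over those bases cannot be told apart between the genes. No annotated pseudogene transcript matched any of the 10 genes at 95% identity or more over at least 75 bases. Among other genes, Cox4i1 shared 154 such bases with Emc8, and Cox6a1 shared 75 with AC148174.2.

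Start-site sequences of 300 bases, 250 before and 50 after the start, were available from RefSeq (GRCm38.p6) for 6 of the 10 genes. The Cox7a and Cox8 pairs are shown because both isoforms of each could be read. The Cox7a1 window is chr7:30183921-30184220 (plus strand), with 53% G and C, and the Cox7a2 window is chr9:79759804-79760103 (minus strand), with 56.7%. The Cox8a window is chr19:7217567-7217866 (minus strand), with 56.0%, and the Cox8b window is chr7:140900397-140900696 (minus strand), with 48.3%. Each is written 5′ to 3′ on the strand of the gene, and capitals mark matches to the hypoxia response cores ACGTG and GCGTG on either strand.
Cox7a1: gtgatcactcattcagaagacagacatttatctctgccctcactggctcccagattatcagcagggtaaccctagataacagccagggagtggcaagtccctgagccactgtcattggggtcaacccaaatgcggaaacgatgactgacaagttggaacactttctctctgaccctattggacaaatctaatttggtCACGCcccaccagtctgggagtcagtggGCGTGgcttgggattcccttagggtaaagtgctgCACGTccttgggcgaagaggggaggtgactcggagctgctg
Cox7a2: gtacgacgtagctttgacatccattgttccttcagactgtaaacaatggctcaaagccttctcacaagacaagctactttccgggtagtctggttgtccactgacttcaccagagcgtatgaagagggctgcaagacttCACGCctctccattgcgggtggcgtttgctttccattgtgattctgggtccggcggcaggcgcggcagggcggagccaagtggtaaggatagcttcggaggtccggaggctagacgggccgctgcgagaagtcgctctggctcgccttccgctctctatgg
Cox8a: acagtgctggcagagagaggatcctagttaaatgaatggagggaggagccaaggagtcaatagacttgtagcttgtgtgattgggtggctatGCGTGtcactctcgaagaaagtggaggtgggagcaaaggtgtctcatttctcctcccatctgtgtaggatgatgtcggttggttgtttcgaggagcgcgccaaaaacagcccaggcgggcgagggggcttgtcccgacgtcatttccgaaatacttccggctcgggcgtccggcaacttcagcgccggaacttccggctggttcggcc
Cox8b: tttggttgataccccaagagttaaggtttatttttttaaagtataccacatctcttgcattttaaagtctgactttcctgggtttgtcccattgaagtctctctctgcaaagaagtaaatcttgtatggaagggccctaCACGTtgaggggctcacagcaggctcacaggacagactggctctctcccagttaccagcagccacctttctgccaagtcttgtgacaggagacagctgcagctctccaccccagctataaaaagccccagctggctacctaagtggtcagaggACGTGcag
The Cox7a1 window holds 1 ACGTG and 2 GCGTG, and the Cox7a2 window 1 GCGTG. The Cox8b window holds 2 ACGTG, and the Cox8a window 1 GCGTG. Of the other windows, that of Ndufa4 holds 1 GCGTG and that of Cox6a1 neither core. These cores are common: of 32817 mouse windows of the same length, 43.8% hold at least 1 of them, so a match is only a description of the letters. The estrogen-related receptor site AAGGTCA (4.72% of windows) and the MEF2 motif, searched by name with its 4 inner letters free (3.69%), were in none of the 6 windows, and GCATGC, part of the NRF1 motif (7.93%), was in that of Cox6a1 alone.

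Total counts ran from 6797180 to 8960688 (median 7902932) in control hearts and from 6682177 to 7833916 (median 6806177) in IDA hearts. Fold changes of all genes followed gene length (Spearman's rho of length with log2 fold change across the 13590 genes, -0.63; genes are not independent replicates): the slope on log2 length of each gene's deviation from its mean over mice was positive in the control hearts (0.0205 to 0.199) and negative in the IDA hearts (-0.254 to -0.0252). Of the 822 tested genes as long as the isoform genes, 83.6% were higher in IDA, with a median log2 fold change of 0.35. Every fold change of the isoform genes is therefore given as measured and after removal of this length trend, and, where it alters the call, after removal of a trend on length and GC content together. The study left out 1 heart per diet for contamination without naming it in the labels, so all 20 were used, and each control and IDA heart was left out in turn, together, in 100 further fits.

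All 10 isoform genes were higher in IDA hearts in CPM, counts scaled to library size by TMM, which assumes most genes to be unchanged (edgeR quasi-likelihood test, adjusted p below 0.05), where 35.0% of all tested genes were called higher. After the length trend was removed, 2 were higher (Cox4i2 and Ndufa4l2; 31.5% of all genes), 7 were lower (23.5% of all genes) and Cox6a1 did not pass. After trends on length and GC were removed together, 1 was higher (Cox4i2; 27.1% of all genes), 7 were lower (20.3% of all genes) and Ndufa4 and Ndufa4l2 did not pass. Cox4i2 was thus the only gene called higher under all 3. The median log2 fold change of the 10 genes was 0.21 as measured and -0.16 after the length correction, against 0.02 and 0.04 over all tested genes. The groups did not overlap in CPM for 3 of the 10, Cox4i2, Ndufa4l2 and Cox6a1, where 4.97% of all tested genes had every IDA mouse above every control mouse.

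**Figure D1:**
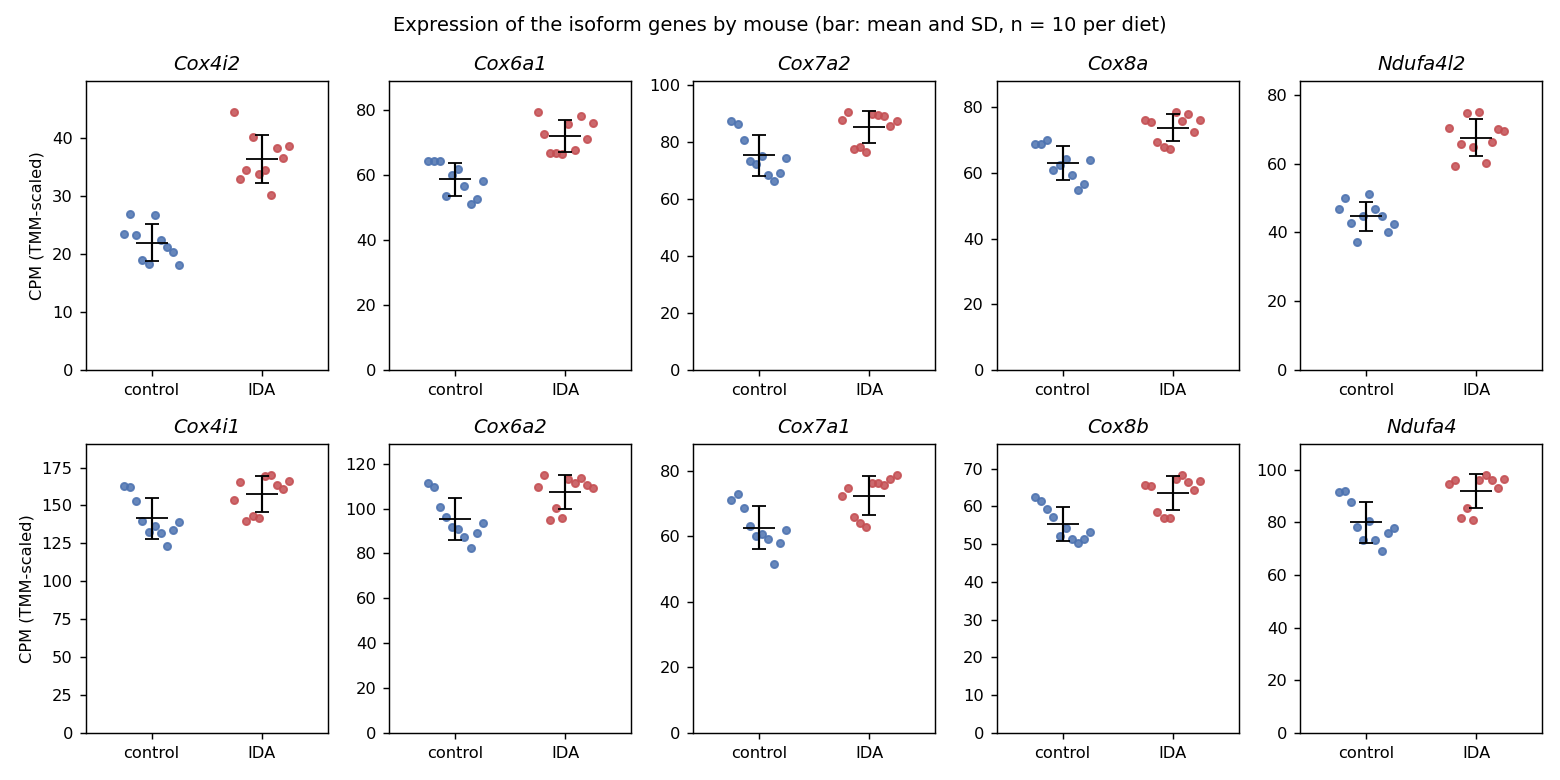
CPM of each isoform gene (y axis, TMM-scaled, from 0) in each of 10 control and 10 IDA hearts (points), with the mean and SD as bars; the form of most tissues or of low oxygen is in the top row and its partner below. The diets do not overlap for Cox4i2, Cox6a1 and Ndufa4l2 and overlap for the other 7 genes; 8 of the 10 differences change sign or lose the call when the gene length trend is removed.

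Cox4i2 had the largest rise of the 10 as measured and after the length correction, while after the length and GC correction 7 genes had larger falls. Its counts were 139, 162 and 216 (lowest, median, highest) in control hearts and 194, 262 and 336 in IDA hearts, and its CPM were 18.1, 21.9 and 26.9 against 30.2, 35.5 and 44.5. Every IDA heart lay above every control heart in CPM, and 9 of 10 did so in raw counts. The mean rose from 21.97 ± 3.19 to 36.4 ± 4.10 CPM (SD, n = 10 each), a log2 fold change of 0.73 (SE 0.08, edgeR adjusted p = 2.92e-07), above that of 98.1% of tested genes. The difference was 0.39 (SE 0.06, adjusted p = 8.94e-06) after the length correction and 0.21 (SE 0.05, adjusted p = 0.0020) after the length and GC correction, so the call and direction held while the size fell by more than 1.5 times.

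Cox4i1, its partner and the most abundant of the 10 genes per base, had counts of 1060, 1078 and 1099 in control hearts and 1093, 1127 and 1159 in IDA hearts. The 2 ranges overlap by a few counts, and 9 of 10 IDA hearts were above every control heart. In CPM the diets overlapped more, at 123, 138 and 163 against 140, 162 and 170, and 5 of 10 IDA hearts were above every control heart. The log2 fold change was 0.15 (SE 0.05, edgeR adjusted p = 0.0145), and leaving out 1 heart per diet ended the call in 7 of 100 fits. It was -0.19 (SE 0.05, adjusted p = 0.0027) after the length correction and -0.01 (adjusted p = 0.87) with library size as a covariate, so no direction can be given for Cox4i1.

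Ndufa4l2 had counts of 283, 331 and 412 in control hearts and 386, 496 and 597 in IDA hearts, and CPM of 37.1, 44.8 and 51.1 against 59.2, 67.9 and 74.99. As for Cox4i2, every IDA heart exceeded every control heart in CPM, with 8 of 10 doing so in raw counts. The mean rose from 44.7 ± 4.27 to 67.6 ± 5.36 CPM, a log2 fold change of 0.60 (SE 0.06, edgeR adjusted p = 1.65e-07). The length-corrected value was 0.30 (SE 0.04, adjusted p = 6.58e-06). With GC content added it was 0.05 (SE 0.04, adjusted p = 0.34), which ends the call; Ndufa4l2 has 60.7% G and C and is the longest of the 10.

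Ndufa4 had counts of 596, 610 and 649 in control hearts and 630, 653 and 716 in IDA hearts, and CPM of 69.2, 78.0 and 91.96 against 81.0, 95.4 and 98.2. In CPM 7 of 10 IDA hearts lay above every control heart. The log2 fold change of 0.20 (SE 0.05, edgeR adjusted p = 0.0025) turned to -0.18 (SE 0.05, adjusted p = 0.0025) after the length correction and to 0.04 (adjusted p = 0.48) with GC content added. Ndufa4 has the lowest G and C content of the 10 genes, 40.3%.

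Of the 3 pairs with a heart and muscle form, Cox6a1 showed the largest difference as measured and the smallest after the length correction. Its counts were 408, 445 and 499 in control and 433, 523 and 599 in IDA hearts, and its CPM were 50.9, 59.0 and 64.2 against 66.5, 71.7 and 79.3, without overlap. The log2 fold change was 0.30 (SE 0.05, edgeR adjusted p = 3.05e-05), and it was -0.08 (SE 0.04, adjusted p = 0.073) after the length correction and -0.37 (SE 0.05, adjusted p = 7.26e-06) with GC content added, which calls it lower. The heart form Cox6a2 had counts of 697, 734 and 749 against 714, 765 and 829, and CPM of 82.5, 92.7 and 111 against 95.1, 110 and 115. Its diets overlapped in CPM for 7 of 10 IDA hearts, and its log2 fold change was 0.17 (SE 0.05, adjusted p = 0.0074), or -0.18 (SE 0.05, adjusted p = 0.0022) after the length correction.

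The Cox7a and Cox8 genes gave 4 similar values. Cox7a1, the heart and muscle form, had counts of 459, 479 and 490 in control and 489, 516 and 547 in IDA hearts, and Cox7a2 had 556, 575 and 607 against 575, 610 and 662. Cox8b, the heart and muscle form of its pair, had 410, 417 and 447 against 439, 453 and 496, and Cox8a had 454, 484 and 519 against 486, 530 and 575. All 4 were narrow within a diet and overlapped between the diets. Log2 fold changes as measured were 0.21 for Cox7a1 (SE 0.06, edgeR adjusted p = 0.0035), 0.18 for Cox7a2 (SE 0.05, adjusted p = 0.0049), 0.20 for Cox8b (SE 0.05, adjusted p = 0.0013) and 0.23 for Cox8a (SE 0.05, adjusted p = 2.48e-04). After the length correction the same 4 genes were at -0.18, -0.15, -0.19 and -0.14, with adjusted p from 0.0019 to 0.0066. After the length and GC correction they were at -0.33, -0.22, -0.35 and -0.36. With library size as a covariate Cox7a1, Cox7a2 and Cox8b were at 0.04, 0.03 and 0.07 and did not pass, so no direction can be given for these genes.

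**Figure D2:**
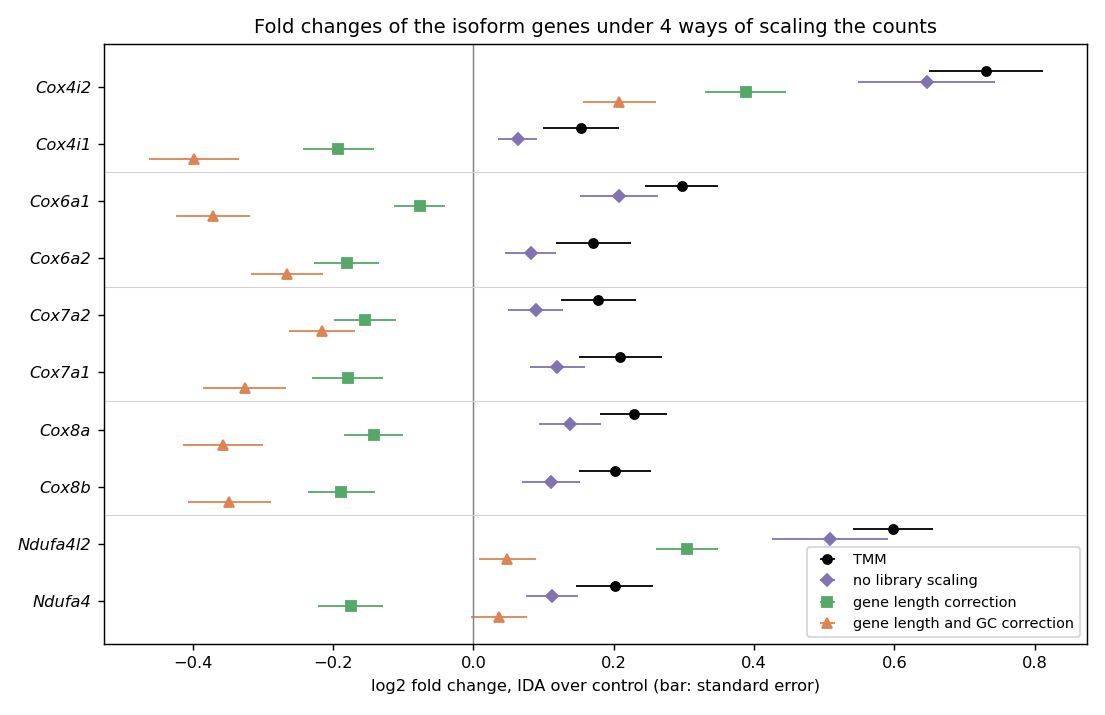
Log2 fold change of IDA over control (x axis; bars, standard error) for each isoform gene under 4 ways of scaling the same counts. Cox4i2 is above 0 under all 4; Ndufa4l2 is above 0 but within 2 standard errors of it after the length and GC correction; 7 genes move from above 0 to below 0 under both corrections and Ndufa4 under the length correction alone.

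The scale of the libraries bore on the smaller differences as well. With raw counts compared without scaling, as if all libraries had the same size, all 10 log2 fold changes stayed above 0. Of the 10, 7 genes were called higher (21.1% of all genes), and Cox4i1, Cox6a2 and Cox7a2 did not pass. With log2 library size as a covariate, 4 were called higher (Cox4i2, Cox6a1, Cox8a and Ndufa4l2; 29.1% of all genes). With the mean of the erythroid markers as a covariate 5 were called (25.2% of all genes), but the fold changes of the 5 that did not pass were no smaller than before, at 0.17 for Cox4i1 and Cox6a2, 0.23 for Cox7a1 and Ndufa4 and 0.19 for Cox7a2. With the mean of the pericyte markers all 10 were called higher, where 4584 of the 13590 tested genes were.

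The abundant isoform genes varied little between mice. PCR duplicates had been removed before the deposited counts were made, so read pairs taken as copies of each other were counted once. The study's methods do not give the rule for a duplicate. Over the 10 control hearts Cox4i1 counts spanned 1.04-fold while library totals spanned 1.32-fold, and the variance of its counts was 0.151 times their mean, where independent counting alone gives a ratio near 1. The ratio was 0.217 for Cox7a1, 0.340 for Cox6a2, 0.405 for Ndufa4, 0.420 for Cox8b and 0.534 for Cox7a2. It was 0.964 for Cox8a, 1.83 for Cox6a1, 3.35 for Cox4i2 and 5.57 for Ndufa4l2. The 5 lowest ratios belonged to the 5 genes with 1 or more read pairs per exonic base. Cox4i1 had 1.63 read pairs per exonic base on average, more than 99.9% of tested genes, and the densest gene of any mouse had 2.06 to 2.39, while Cox4i2 had 0.297 and Ndufa4l2 0.431. Over all tested genes the median ratio in control hearts was 7.27 at 0.2 to 0.5 read pairs per base, 5.30 at 0.5 to 1 and 1.53 at 1 or more, the last class holding 270 genes. Over 15 complex IV genes Spearman's rho of read density with log2 fold change was -0.57, as a description, since genes are not independent replicates. The part of read density in the small fold changes of the abundant genes was not tested.

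**Figure D3:**
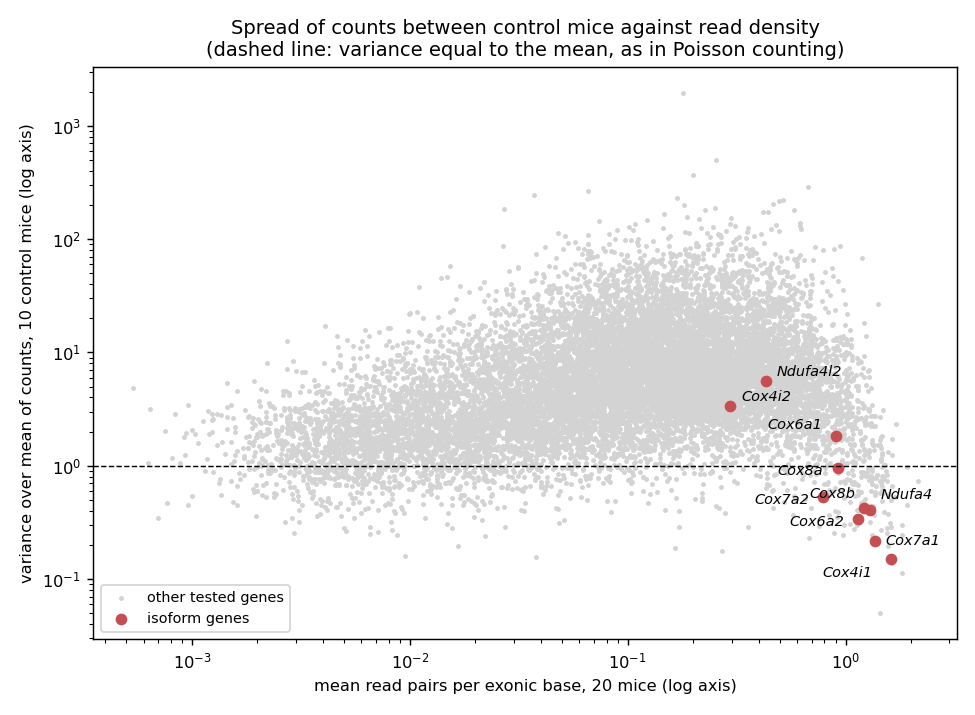
Variance over mean of raw counts in 10 control hearts (y axis, log scale) against mean read pairs per exonic base in 20 hearts (x axis, log scale) for each tested gene (grey) and the isoform genes (red); the dashed line marks a variance equal to the mean. Cox4i2 and Ndufa4l2 lie among the other genes above the line, and 7 isoform genes, from Cox8a to Cox4i1, lie below it at higher read density.

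Levels of different genes can be compared only per length, here as FPKM, the CPM divided by exonic length in kilobases. In control hearts the order of mean FPKM was Cox4i1 (208), Cox7a1 (171), Ndufa4 (163), Cox8b (152), Cox6a2 (145), Cox8a (116), Cox6a1 (109.9), Cox7a2 (99.96), Ndufa4l2 (46.3) and Cox4i2 (30.2). Among the 8 abundant genes every neighbouring pair in this order overlapped in its ranges over the 10 mice. Ndufa4l2 (38.5 to 53.0) lay apart from the abundant genes above it and from Cox4i2 (24.8 to 37.0) below it. In each of the 3 pairs with a heart and muscle form, that form had the higher mean, with the other at 43.2% ± 1.55 of the pair for Cox6a1, 36.9% ± 0.764 for Cox7a2 and 43.1% ± 1.06 for Cox8a (SD, n = 10). These are shares of read pairs left after duplicate removal.

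The balance within each pair was then compared as the log2 ratio of read pairs per exonic base in the same mouse. The total of a library enters both genes alike, but the counts of the abundant partner followed it little, so the ratio is not free of depth. In control hearts the count variance of that partner was 0.151 (Cox4i1) to 0.420 (Cox8b) times its mean. Whether such counts follow abundance was not tested, so a ratio that did not differ does not show that the balance was kept. When log2 library size was added to the model, the log2 differences given below for Cox4i2, Ndufa4l2 and Cox6a1 over their partners became 0.66, 0.53 and 0.17. Of 5 ratios tested, 3 were higher in IDA hearts (Cox4i2 over Cox4i1, Ndufa4l2 over Ndufa4 and Cox6a1 over Cox6a2) and 2 did not pass (Cox7a2 over Cox7a1 and Cox8a over Cox8b), though each passed under 1 correction. Values are from a two-sided permutation test with 100000 resamples, unadjusted.

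The Cox4i2 to Cox4i1 ratio was 0.122 to 0.184 (median 0.142) in control hearts and 0.166 to 0.271 (median 0.218) in IDA hearts. Of the 10 IDA hearts, 9 were above every control heart, and the other lay above the control mean. The ratio was 1.49 times higher in IDA, a difference of 0.58 on the log2 scale (SE 0.09, permutation p = 2e-05, the smallest these resamples can give). Cox4i2 made up 12.7% ± 1.45 of the pair in control and 17.8% ± 2.17 in IDA hearts. The difference was 0.58 after the length correction and 0.61 after the length and GC correction, both at p = 2e-05, and 0.51 to 0.66 with a heart of each diet left out. It was 0.47 (exact permutation p = 0.0051) among the libraries with the lower range of library numbers, which the column names give with no account of what they mark (5 control, 7 IDA) and 0.72 (exact permutation p = 0.036, the smallest possible) among those with the higher range (5 control, 3 IDA). Of the 5 ratios it alone kept both its direction and its call under every alternative that gave a p.

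The Ndufa4l2 to Ndufa4 ratio was 0.243 to 0.330 (median 0.278) in control hearts and 0.313 to 0.446 (median 0.382) in IDA hearts. Of the 10 IDA hearts, 8 were above every control heart, and all 10 were above the control mean. It was 1.31 times higher in IDA, by 0.40 on the log2 scale (SE 0.07, permutation p = 0.0002), and Ndufa4l2 rose from 22.2% ± 2.01 to 27.3% ± 2.24 of the pair. The difference was 0.48 (p = 2e-05) after the length correction and 0.01 (p = 0.87) with GC content added. The pair differs in G and C by more than any other, 60.7% against 40.3%.

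The Cox6a1 to Cox6a2 ratio was 0.688 to 0.841 in control and 0.750 to 0.894 in IDA hearts, with 5 of 10 IDA hearts above every control heart. The log2 difference was 0.12 (SE 0.04, permutation p = 0.0057), 0.10 (p = 0.017) after the length correction and -0.11 (p = 0.0078) after the length and GC correction. It was 0.08 (exact permutation p = 0.10) and 0.19 (exact permutation p = 0.11) within the ranges of library numbers. Its direction therefore depends on the correction.

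The remaining ratios moved, as measured, by less than the SD between mice. The Cox7a2 to Cox7a1 ratio was 0.559 to 0.624 in control and 0.536 to 0.591 in IDA hearts, a log2 difference of -0.03 (SE 0.02, permutation p = 0.19). After the length and GC correction it was 0.11 (p = 0.0005). The Cox8a to Cox8b ratio was 0.709 to 0.797 against 0.737 to 0.796, a log2 difference of 0.03 (SE 0.02, permutation p = 0.24). After the length correction it was 0.05 (p = 0.049) and with GC content added -0.01 (p = 0.66).

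**Figure D4:**
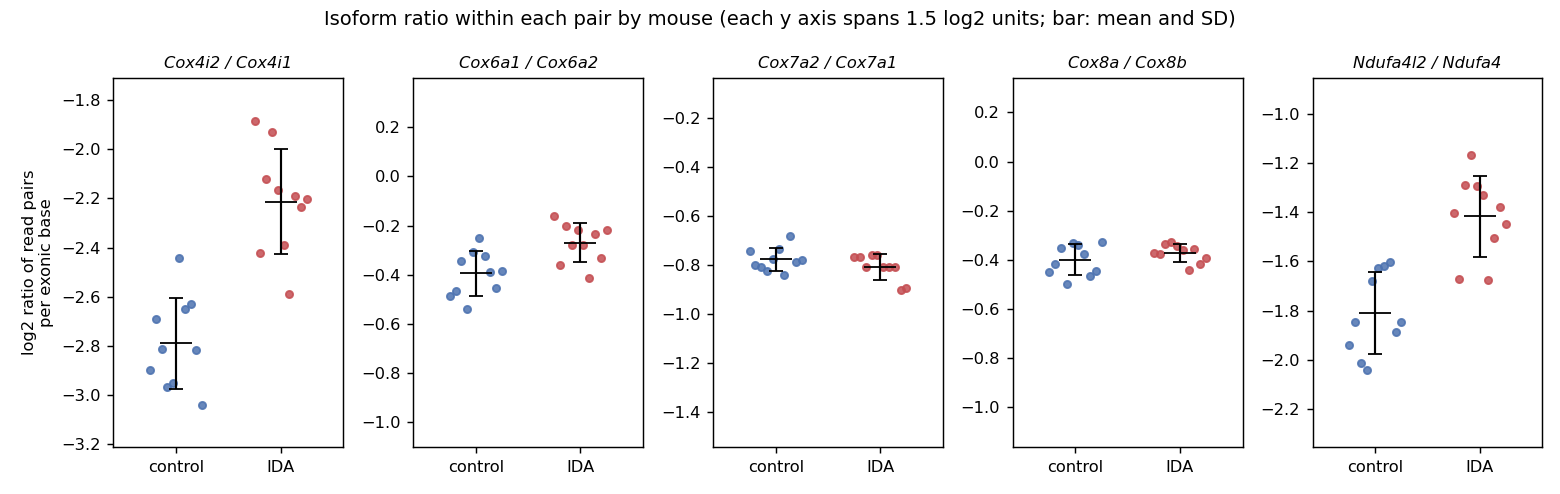
Log2 ratio of read pairs per exonic base within each isoform pair (y axis; every panel spans 1.5 log2 units) in 10 control and 10 IDA hearts (points; bars, mean and SD). The ratios of Cox4i2 to Cox4i1 and of Ndufa4l2 to Ndufa4 are higher in IDA by 0.58 and 0.40; the other 3 differ by 0.12 or less, and the Ndufa4l2 difference falls to 0.01 and the Cox6a1 difference turns to -0.11 when trends on length and GC are removed.

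The levels of Cox4i2 and Ndufa4l2 were then related to each other across the mice of a diet. In log2 CPM their Pearson's r was 0.75 (permutation p = 0.012, adjusted over 6 relations 0.073) and Spearman's rho 0.76 (p = 0.015, adjusted 0.046) in control hearts. In IDA hearts r was 0.65 (permutation p = 0.041, adjusted 0.083) and rho 0.76 (p = 0.015, adjusted 0.046), with n = 10 in each diet. When the 2 mice with the most extreme Ndufa4l2 were left out, r was 0.65 in control hearts and 0.31 in IDA hearts, so the relation in IDA hearts rests in large part on those mice. By contrast, diet-centred log2 CPM of Cox4i2 and Cox4i1 over the 20 hearts had r = 0.20, and of Ndufa4l2 and Ndufa4 r = 0.14, while r was 0.93 for Cox7a1 with Cox7a2, 0.89 for Cox8a with Cox8b and 0.74 for Cox6a1 with Cox6a2. These values are a description, since genes of a library share its depth and length trend.

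**Figure D5:**
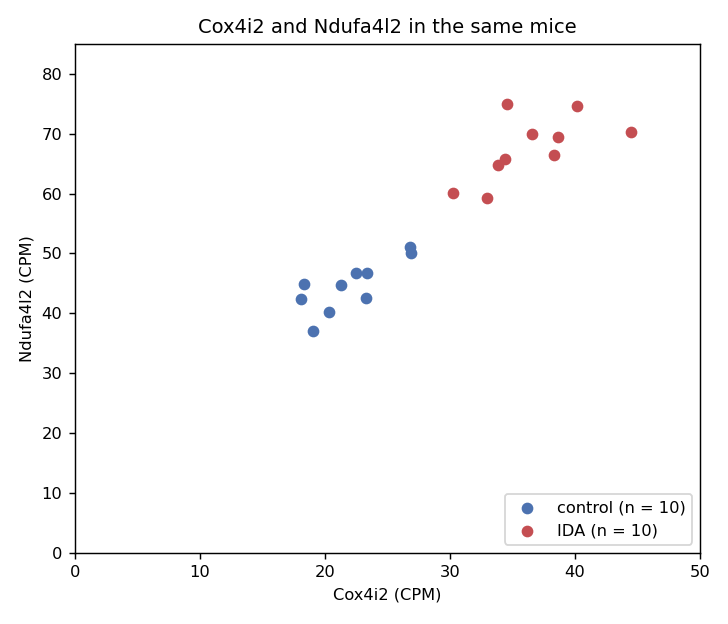
Cox4i2 (x axis, CPM) and Ndufa4l2 (y axis, CPM) in the same 10 control and 10 IDA hearts. The diets form separate groups on both axes, with Cox4i2 up to 26.9 and Ndufa4l2 up to 51.1 in control hearts and from 30.2 and 59.2 in IDA hearts.

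The genes most like each isoform gene, by Pearson's r of diet-centred log2 CPM over 20 hearts, divided the same way. For Cox4i1 the nearest were Ndufa10 (0.99), a complex I subunit, and Atp5c1 (0.99), a subunit of ATP synthase. Psap and Hsp90ab1 (both 0.99), outside the respiratory chain, came next. Counts of dense genes followed library size little, so their CPM can move together for that reason. Whether these r values hold more than that was not tested. Cox6a2 and Cox7a2 were both nearest to Ndufb10 (0.98 and 0.99), Cox8b to Ndufb8 (0.97), Cox8a to Ndufs7 (0.96) and Ndufa4 to Mdh1 (0.98), the cytosolic malate dehydrogenase. Cox7a1 was nearest to Cryab (0.97), a small heat shock protein of muscle, and Cox6a1 to Pfdn5 (0.94), a subunit of the chaperone prefoldin. Cox4i2 was nearest to Ifi27l1 (0.89) and Prelid1 (0.87), and Ndufa4l2 to Mvp (0.88), the major vault protein. After the length correction Cox4i2 was nearest to Src (0.84), a tyrosine kinase, and Ndufa4l2 to Fam179a (0.82), followed by Gja4, a gap junction protein of vessel walls.

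The other nuclear subunits of complex IV did as the abundant isoform genes did. Of 9 listed, 7 passed the filter and all 7 were higher in IDA as measured (median log2 fold change 0.18), where 35.0% of all tested genes were. After the length correction 0 were higher and 5 lower, where 31.5% and 23.5% of all tested genes were. Cox5a was at 0.18 (SE 0.05, edgeR adjusted p = 0.0067) and -0.17 after correction, and Cox6b1 at 0.15 (SE 0.05, adjusted p = 0.0146) and -0.22 after correction. The testis-associated isoform Cox6b2, at low level (4.11 ± 1.14 CPM in control and 6.66 ± 1.83 in IDA hearts), was at 0.70 (SE 0.17, adjusted p = 8.39e-04) and did not pass after the length correction (0.34, adjusted p = 0.076). Cox7b2 and Cox8c, known from testis, were below the filter. Of 35 tested complex I subunits, 33 were higher and 0 lower (32.5% of all genes were called lower), with a median of 0.20, and 2 were higher and 21 lower after the length correction. The isoform genes of most tissues and of heart and muscle thus had values within the range of the other subunits, and Cox4i2 and Ndufa4l2 had values above those of every complex I subunit tested, both as measured and after the length correction. Among the complex IV subunits, Cox6b2 lay above Ndufa4l2 and below Cox4i2 in both.

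Of 12 genes that regulate or assemble these subunits, 11 were tested, and Higd1c had no count in any library. As measured 8 were higher and 3 lower (35.0% and 32.5% of all tested genes). After the length correction 4 were higher and 1 lower (31.5% and 23.5% of all tested genes). Higd1b, a small mitochondrial protein of a family that associates with complex IV, rose from 13.6 ± 1.63 to 22.5 ± 2.86 CPM, from 11.9 to 17.5 in control hearts against 17.7 to 26.2 in IDA hearts, without overlap. Its log2 fold change of 0.73 (SE 0.08, edgeR adjusted p = 3.15e-07) and 0.39 after correction (adjusted p = 1.70e-04) were the values of Cox4i2 to 2 decimals. Higd1b was on no cell type list here, and the reason for this match was not tested. Its relatives Higd1a and Higd2a were at 0.20 and 0.19, and at 0.06 (adjusted p = 0.23) and -0.17 after correction. Egln3, an oxygen sensor and HIF target, rose by 0.74 (SE 0.07, adjusted p = 1.45e-07) and by 0.74 after the length correction, at 2676 exonic bases. Lonp1, the mitochondrial protease known to degrade Cox4i1, rose by 0.28 (SE 0.04, adjusted p = 3.48e-06) and by 0.33 after correction. Cox7a2l, which joins complexes III and IV in supercomplexes, was at 0.25 (adjusted p = 3.62e-05) and -0.01 (adjusted p = 0.78) after correction. The HIF subunits Hif1a and Epas1, with 4761 and 5352 exonic bases, were at -0.35 and -0.42 as measured (adjusted p = 7.35e-04 and 6.33e-05) and did not pass after correction (-0.08 and -0.09). Rbpj, a transcription factor reported to act on Cox4i2, was at -0.23 (adjusted p = 4.07e-04) and at 0.13 (adjusted p = 0.029) after correction.

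Cox4i2 and Ndufa4l2 are also known as markers of pericytes, the contractile cells around capillaries, so markers of the cell types in the heart were read beside them. All 10 cardiomyocyte markers were detected, at a summed 6847 to 10115 CPM in control and 5721 to 8722 in IDA hearts. As measured 4 were higher and 2 lower (35.0% and 32.5% of all tested genes). After the length correction 4 were higher and 5 lower (31.5% and 23.5% of all tested genes). Of 10 pericyte markers 5 were higher (Kcnj8, Vtn, Mcam, Colec11 and Cspg4), 3 lower (Rgs5, Abcc9 and Notch3) and 2 did not pass, at a summed 1601 to 1938 CPM in control and 1322 to 1769 in IDA hearts. After the length correction 5 pericyte markers were higher and 2 lower. Rgs5, a defining marker, was at -0.44 (edgeR adjusted p = 4.99e-05) and -0.59 after the length correction, while Vtn was at 0.45 (adjusted p = 1.80e-06) and 0.28 after it. With the mean of these markers in the fit, Cox4i2 stood at 0.69 (adjusted p = 2.75e-07) and Ndufa4l2 at 0.59 (adjusted p = 1.32e-07). Within a diet, Pearson's r of the marker mean with Cox4i2 was -0.15 in control hearts and -0.68 in IDA hearts (permutation p = 0.69 and 0.032, adjusted 0.75 and 0.083), with Spearman's rho of -0.41 and -0.59 (p = 0.25 and 0.082, adjusted 0.37 and 0.16); when the 2 mice with the most extreme marker means were left out, r was -0.03 and -0.53. With Ndufa4l2, r was 0.11 and -0.27 (permutation p = 0.75 and 0.45, adjusted 0.75 and 0.67), and rho was -0.12 and -0.22 (p = 0.76 and 0.54, adjusted 0.76 and 0.64).

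Of the other marker lists, all 4 tested erythroid genes were higher in IDA, at a summed 111 to 211 CPM in control and 219 to 790 in IDA hearts, with Hba-a1 and Hba-a2 listed at 0 in every library. With their mean as a covariate Cox4i2 was at 0.80 (edgeR adjusted p = 2.38e-04) and Ndufa4l2 at 0.64 (adjusted p = 1.83e-04). Smooth muscle markers were higher for 2 and lower for 1 of 6, endothelial markers higher for 3 and lower for 2 of 6, and fibroblast markers higher for 1 and lower for 1 of 6. Fat markers were higher for 2 of 5 tested, skeletal muscle markers for 2 of 6 and atrial markers for 1 of 4, with none lower. These counts are as measured, where 35.0% of all tested genes were called higher and 32.5% lower. After the length correction smooth muscle markers were higher for 2 and lower for 0, endothelial for 3 and 0, and fibroblast for 2 and 2. Fat markers were then higher for 1 and lower for 1, and no skeletal muscle or atrial marker passed. Over all tested genes 31.5% were higher and 23.5% lower after that correction. The summed ranges overlapped between the diets in all of these lists but the erythroid one. The part of changes in cell types in the differences of the isoform genes was not tested. The pericyte covariate averages markers that went both ways, and the erythroid sums did not overlap between the diets, so neither fit measures that part.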

How the data were processed

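Poly(A) RNA from heart tissue of 20 mice was sequenced as paired reads of 75 bases. Per the study's methods, the authors used STAR for alignment to mm10 and SAMtools to remove PCR duplicates, and the deposited raw counts per gene come from featureCounts (1.4.5-p1 in the file header). Read pairs taken as duplicates were thus counted once, and strand was ignored. A gene was tested if 10 or more mice reached 1 CPM (13590 of 23420), and IDA was compared with control in edgeR 4.0.16 (R 4.3.3; TMM, quasi-likelihood, Benjamini-Hochberg over all tested genes). Other fits used DESeq2 1.42.0, removed a loess trend (span 0.5) on exonic length, alone or with GC content (known for 94.0% of tested genes), or added covariates. Pair ratios used counts plus 0.5 per exonic base and permutation tests (scipy 1.17.1). Between 6682177 and 8960688 read pairs were counted per mouse. p-values measure the spread between mice. In control hearts the SD of Cox4i1 was 12.8 on a mean of 1079 counts, and 13.5 on a mean of 142 CPM. The spread in CPM of such a dense gene thus includes that of library totals. The genes, lists, motifs and tests were chosen with earlier results of these data known. All isoform genes were named by rule; of other lists, the examples named were picked after their values were seen. Scripts were tested on simulated counts.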

Additional observations from a re-analysis of the deposited data

How the results depend on the processing

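Directions of the abundant isoform genes depended on gene length and GC content. After the length correction 2 genes were higher (31.5% of all tested genes) and 7 lower (23.5% of all tested genes) in IDA. Log2 fold changes were then -0.19 for Cox4i1, -0.0766 for Cox6a1, -0.18 for Cox6a2 and -0.18 for Cox7a1. They were -0.15 for Cox7a2, -0.14 for Cox8a, -0.19 for Cox8b and -0.18 for Ndufa4. After the length and GC correction 1 was higher (27.1% of all tested genes) and 7 lower (20.3% of all tested genes). The 7 were at -0.40 for Cox4i1, -0.37 for Cox6a1, -0.27 for Cox6a2, -0.33 for Cox7a1, -0.22 for Cox7a2, -0.36 for Cox8a and -0.35 for Cox8b. With log2 library size as a covariate 4 were higher (29.1% of all tested genes) and Cox4i1 was at -0.00504. With the erythroid marker mean 5 were higher (25.2% of all tested genes), the fold changes of the other 5 being no smaller. Among the ratios, Cox6a1 to Cox6a2 was -0.11 after the length and GC correction and 0.0785 and 0.19 within the lower and higher ranges of library numbers; Cox7a2 to Cox7a1 was 0.0252, 0.11 and 0.00995 after the length correction, after the length and GC correction and in the higher range; Cox8a to Cox8b was 0.0470 and -0.00906 after the same corrections; and Ndufa4l2 to Ndufa4 was 0.00969 after the length and GC correction. The cause was not tested.

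Calls of all 10 genes held under DESeq2, its size factors in edgeR, upper-quartile scaling and both other filters on low counts. They also held with the library number range as a covariate (chosen after seeing the data, as was the fit without library scaling). Of the 13590 tested genes, 4695 were called higher under DESeq2, 4711 with its size factors, 5154 with upper-quartile scaling and 4782 with the number range. Without the filter 4876 of 18874 genes were called higher, and with a filter of 5 CPM 4386 of 11636. Of the 822 tested genes as long as the isoform genes, 83.6% were called higher as measured. Without 1 heart per diet, 9 to 10 of the isoform genes were higher, and the share of all genes was not computed for these fits. Replicate numbers did not pair the mice (correlation of same-numbered deviations -0.28 to 0.26, over 0.1 in 3 of 10 pairs). With the replicate block 10 isoform genes were higher, where 4584 of the 13590 tested genes were. The Cox4i2 to Cox4i1 difference of 0.58 then had an exact sign-flip permutation p of 0.0020. No isoform gene or ratio had a heart standing apart by Dixon's test over 30 groups of 10. Each of the 10 genes had at least 139 counts in every mouse, but counts of the dense genes varied by less than counting error and followed depth little, and 6 calls were lost with library size as a covariate.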
